A study of Mus musculus with 6 samples.

Results

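The 10 genes described here, of 50600 in the count table, encode enzymes that trim and branch N-linked glycans in the Golgi. They are *Man1a*, *Man1a2*, *Man2a1*, *Man2a2*, *Mgat1*, *Mgat2*, *Mgat4a*, *Mgat4b*, *Mgat5* and *Fut8*. The set was chosen by pathway around *Man2a2*, which was selected because the study lists it as lower in the flt3L-/- cells. The genotype contrast therefore chose *Man2a2*, and the values of all 10 genes in that contrast are given as a description. Of 50600 genes, 13475 protein-coding genes passed the filter on low counts, and they include all 10.

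N-linked glycans reach the Golgi as high-mannose chains on newly folded glycoproteins. Mannosidases of class I trim them, MGAT1 adds the first GlcNAc of a branch, and α-mannosidase II then removes further mannoses so that MGAT2 can start the opposite branch. MGAT4 and MGAT5 enzymes add more branches, and FUT8 adds a fucose to the core. The resulting complex glycans decorate most surface receptors and adhesion proteins of endothelial and stromal cells.

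RNA was sequenced from freshly sorted cardiac side population (SP) cells, which are cardiac cells that pump out a DNA-binding dye. The 3 wt libraries came from C57BL/6NRj mice, and the 3 libraries labelled flt3L-/- came from C57BL/6Flt3Ltml/mx mice on a C57BL/6N background, a strain named for loss of the cytokine Flt3 ligand. All mice were 8 to 12 weeks old with no treatment named, and each library pooled SP cells of 4 mice from a suspension depleted of cardiomyocytes and erythrocytes. One library of each genotype was sorted on each of 3 dates, and these pairs 1, 2 and 3 lay 0, 2 and 372 days after the first sort.

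The libraries held 24370913 to 31145519 counts. *Flt3l*, the targeted gene, was read at 8.67, 10.8 and 12.1 CPM (counts scaled to a common library size) in the wt libraries of pairs 1, 2 and 3, and at 13.6, 12.4 and 14.4 CPM in the libraries labelled flt3L-/-. It was thus not lower in the latter (log2 fold change 0.37, SE 0.20). The labels do not say which part of the gene was altered, and a count over the whole gene does not check a deletion of one part. Among markers of cell types that such a suspension can hold, summed CPM was 7843 to 10250 over 10 endothelial genes, 10370 to 44860 over 10 fibroblast genes, of which *Gsn* alone made up 58.7% to 64.8%, and 277 to 905 over 10 mural genes. The sums were 63.2 to 1862 for macrophages and monocytes, 37.8 to 298 for lymphocytes and NK cells, 142 to 244 for cardiomyocytes and 243 to 491 for erythroid cells. No listed marker was at 0 in all 6 libraries. In bulk RNA, fewer cells of a type and less RNA per cell cannot be told apart.

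Among the 10 genes, *Man2a2* was the only one lower in the library labelled flt3L-/- than in its wt partner on all 3 dates, and *Mgat5* the only one higher on all 3. Over all 13475 genes, 11.5% were lower and 14.2% higher in each pair. The signs of the other 8 members were mixed. The median log2 fold change of the 10 members was 0.004, against −0.0003 over all genes tested.

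No member was called in the genotype contrast by edgeR's quasi-likelihood test with the sorting date as a covariate at an adjusted p under 0.05, and 0% of all genes were. At an unadjusted p under 0.05, 1 of 10 members passed, *Man2a2*, against 3.59% of all genes (484). With DESeq2, 1 of 10 members was called, again *Man2a2*, against 0.156% (21 genes). These calls repeat the contrast by which *Man2a2* was selected. The study, also with edgeR's quasi-likelihood test and the date as a covariate, lists genes at an adjusted p under 0.05, *Man2a2* among them. Here the adjusted p of *Man2a2* in that test was 0.973 (unadjusted 0.00128). The cause of this difference was not tested. The 2 genotypes did not overlap for 1 member, *Mgat5*, which was higher in the libraries labelled flt3L-/-, as were 3.53% of all genes. For 0 members did the groups separate in the other direction, against 2.92% of all genes.

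**Figure D1:**
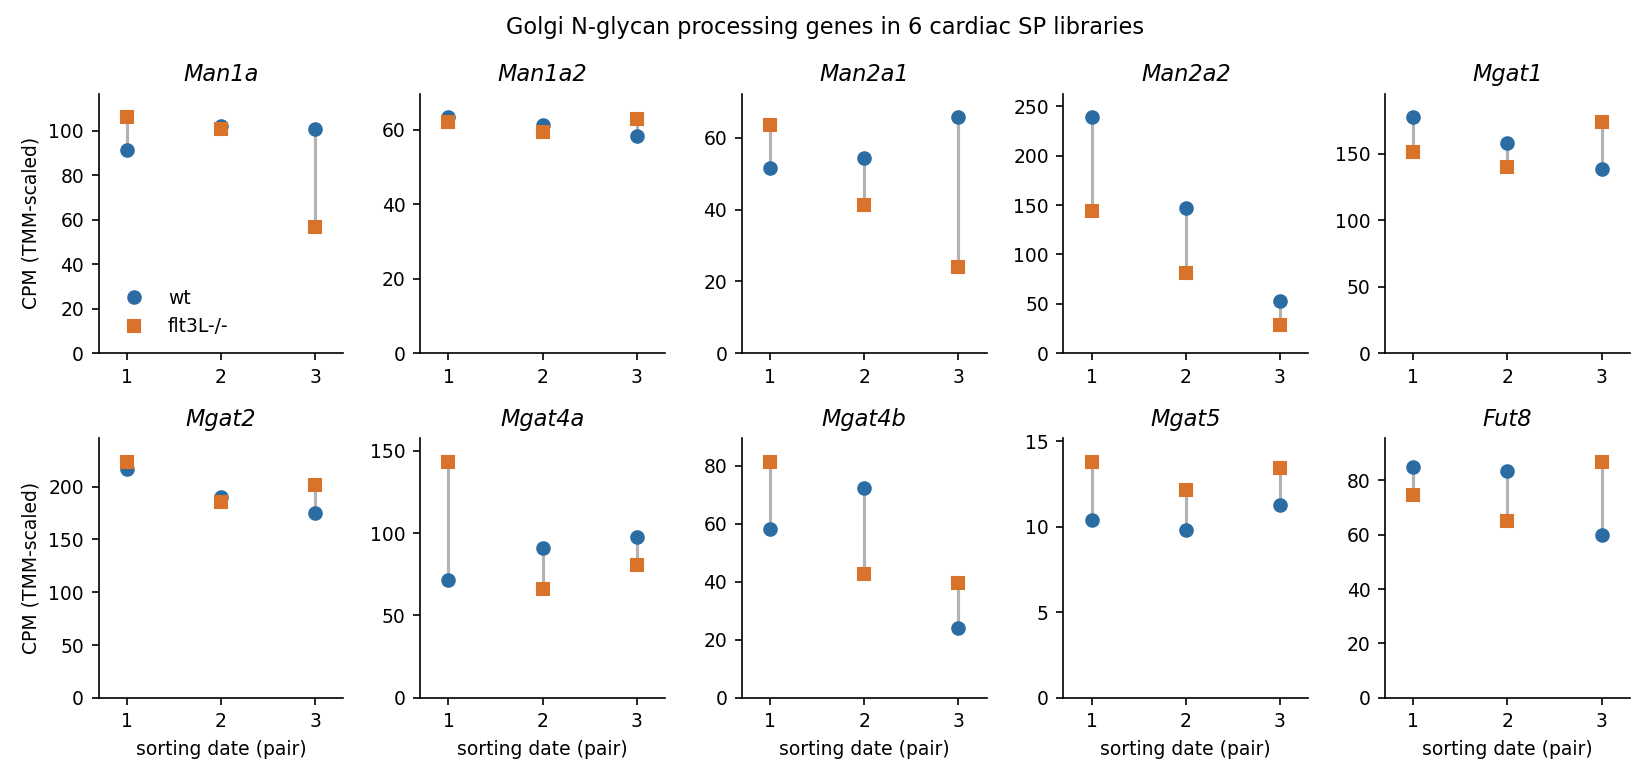
CPM (TMM-scaled) of the 10 genes in each library by sorting date, with wt as circles, the libraries labelled flt3L-/- as squares and a grey line joining the libraries of 1 date. *Man2a2* spans 28.8 to 239 CPM and is lower on each later date in both genotypes, while *Man1a2* stays between 58.4 and 63.4 CPM.

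**Figure D2:**
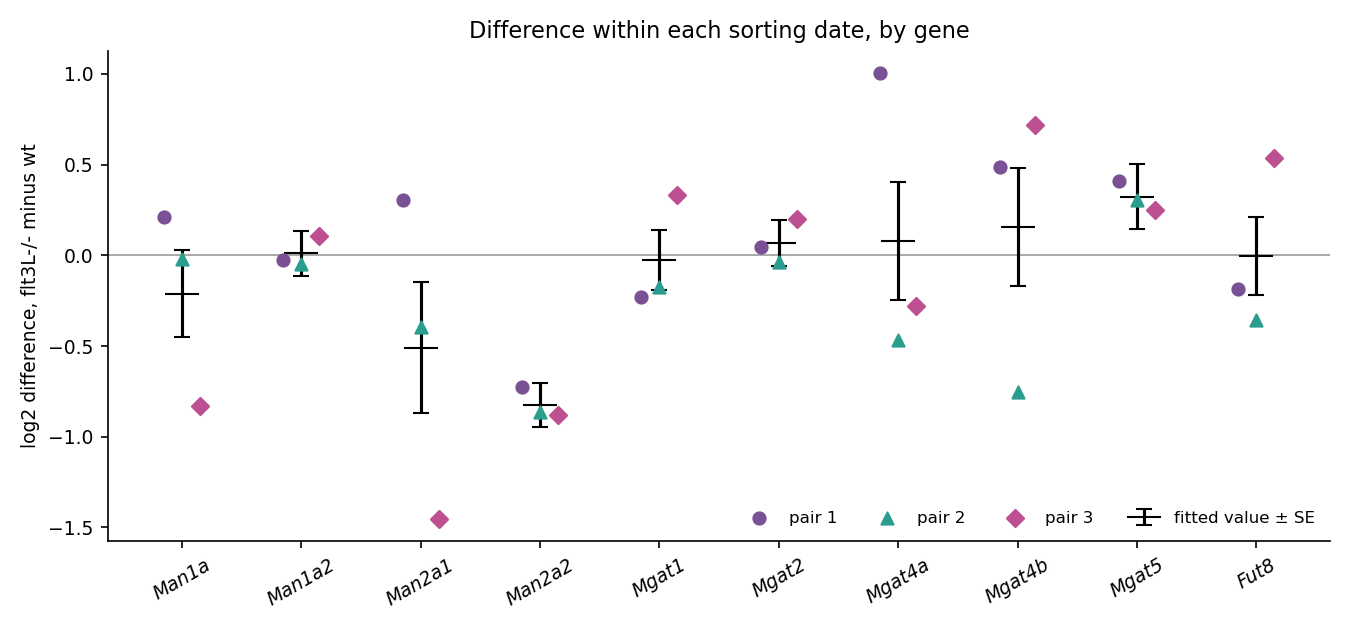
Log2 difference, libraries labelled flt3L-/- minus wt, within each of the 3 pairs (points) and the value fitted by edgeR with its SE (black bar). The 3 points of *Man2a2* lie between −0.88 and −0.73, whereas those of *Man2a1*, *Mgat4a* and *Mgat4b* lie on both sides of 0.

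The class I mannosidases act first. *Man1a* (chr10:53904785-54076609, minus strand, GRCm38) was at 91.5, 102 and 101 CPM in the wt libraries of pairs 1, 2 and 3, and at 106, 101 and 56.5 CPM in those labelled flt3L-/-. Only the library labelled flt3L-/- of pair 3 stood apart, so that the log2 fold change of −0.21 (SE 0.24) came from 1 pair (−0.83), and leaving out that pair turned it to 0.10. *Man1a2* (chr3:100562208-100685503, minus strand), which encodes a second enzyme of the same step, was the steadiest member. It was at 63.4, 61.3 and 58.4 CPM in the wt libraries and at 62.2, 59.3 and 63.0 CPM in the others, so that the highest library exceeded the lowest 1.085-fold (log2 fold change 0.01, SE 0.12).

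MGAT1 adds the GlcNAc on which all complex and hybrid N-glycans depend. *Mgat1* (chr11:49244191-49263030, plus strand) was at 178, 158 and 138 CPM in the wt libraries and at 152, 140.0 and 174 CPM in those labelled flt3L-/-. The groups overlapped, and the difference changed sign between pairs (log2 fold change −0.02, SE 0.17). *Mgat2* (chr12:69184157-69186770, plus strand), whose product acts after α-mannosidase II, was at 217, 190.4 and 175 CPM in wt and at 224, 186 and 201 CPM in the libraries labelled flt3L-/- (log2 fold change 0.07, SE 0.13). The highest of the 6 libraries exceeded the lowest 1.285-fold for *Mgat1* and 1.277-fold for *Mgat2*.

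Promoter windows, 250 bases before to 50 bases after a transcript start, were found for 7 of the 10 members in RefSeq (GRCm38.p6), 13 windows in all. Those of *Mgat2* and *Mgat1* are shown because these genes had the highest levels per exon length in every library, and that of *Man1a* because it belongs to the preceding step and stood low in 1 library only. They read 5′ to 3′ on the strand of the gene, and capitals mark a GC box (GGGCGG, or CCGCCC on the opposite strand), the motif bound by Sp1-type factors.
Mgat2 (chr12:69183908-69184207, plus strand): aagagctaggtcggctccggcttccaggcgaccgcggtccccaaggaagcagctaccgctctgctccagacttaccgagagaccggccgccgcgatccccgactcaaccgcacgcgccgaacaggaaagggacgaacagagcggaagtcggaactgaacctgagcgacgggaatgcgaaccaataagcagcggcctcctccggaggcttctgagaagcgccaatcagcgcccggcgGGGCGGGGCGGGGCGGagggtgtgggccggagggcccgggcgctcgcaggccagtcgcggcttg
Mgat1 (chr11:49243941-49244240, plus strand, the first of 3 starts): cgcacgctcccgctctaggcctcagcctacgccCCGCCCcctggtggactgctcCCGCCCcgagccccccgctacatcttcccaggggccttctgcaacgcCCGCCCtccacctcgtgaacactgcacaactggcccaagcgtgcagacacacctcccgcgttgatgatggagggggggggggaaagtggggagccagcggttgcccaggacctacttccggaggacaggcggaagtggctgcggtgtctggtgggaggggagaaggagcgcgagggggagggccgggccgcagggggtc
Man1a (chr10:54075688-54075987, minus strand): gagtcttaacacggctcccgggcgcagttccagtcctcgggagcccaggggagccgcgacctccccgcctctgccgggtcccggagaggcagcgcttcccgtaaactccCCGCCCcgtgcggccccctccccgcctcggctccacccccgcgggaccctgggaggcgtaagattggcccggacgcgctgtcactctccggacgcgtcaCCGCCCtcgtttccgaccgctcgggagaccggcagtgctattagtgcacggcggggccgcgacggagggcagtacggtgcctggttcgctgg

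The *Mgat2* window held 3 overlapping GC boxes, which began 14, 9 and 4 bases before the start. That of *Mgat1* held 3, beginning 217, 196 and 149 bases before it, and that of *Man1a* held 2, at 141 and 42 bases. A GC box occurred in 35.7% of the 32851 mouse promoter windows of the same length. CCAAT (either strand) occurred in 37.4% of them and was found 2 times for *Mgat2*, 1 time for *Man1a* and 0 times for *Mgat1*. TATAAA (either strand), present in 13.6% of all windows, was in none of the 3. These are matches of letters and were not tested for binding. In the GENCODE annotation, the *Man1a* window lies inside the gene span given above, in the first intron of 1 transcript that starts further upstream, while the other annotated *Man1a* starts near this site lie within the window.

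α-Mannosidase II, the step between MGAT1 and MGAT2, is encoded by *Man2a1* and *Man2a2*. *Man2a2* (ENSMUSG00000038886, chr7:80349097-80371375, minus strand) was at 239, 147 and 53.1 CPM in the wt libraries of pairs 1, 2 and 3, and at 144, 80.8 and 28.8 CPM in those labelled flt3L-/-. Each library labelled flt3L-/- was lower than its partner, at 0.604, 0.549 and 0.543 of the wt level, but the groups overlapped (146 ± 93.0 against 84.7 ± 57.9 CPM, SD, n = 3), since the wt library of pair 3 lay below the libraries labelled flt3L-/- of pairs 1 and 2. The log2 fold change with the date as a covariate was −0.82 (SE 0.12). Without that covariate it was −0.79 with an SE of 0.69.

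*Man2a2* varied more between sorting dates than between genotypes. On the last date it was 4.50-fold lower than on the first in wt and 5.01-fold lower in the libraries labelled flt3L-/-, and the fitted log2 difference was −0.77 for date 2 and −2.25 for date 3 against date 1. By edgeR's quasi-likelihood test of the dates, the unadjusted p was 0.000112 and the adjusted p 0.501, with 6 libraries and each date represented by 1 library per genotype. This p uses the same residual spread as the genotype contrast by which *Man2a2* was selected. No member was called by that test, and 0% of all genes were. At an unadjusted p under 0.05, 1 of 10 members passed against 8.28% of all genes. DESeq2 called 1 of 10, *Man2a2*, against 2.89% (389 genes). What else changed between the dates was not given in the labels, and the cause was not tested.

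*Man2a1* (chr17:64600736-64755110, plus strand), the isoenzyme, did not follow this course in wt, while in the libraries labelled flt3L-/- it too was lower on each later date. It was at 51.6, 54.6 and 65.8 CPM in the wt libraries and at 63.7, 41.4 and 24.0 CPM in those labelled flt3L-/-. The wt values lay close together, whereas the others spread 2.65-fold. The differences within pairs were 0.30, −0.40 and −1.45 on the log2 scale, and the fitted value of −0.51 (SE 0.36) was −0.05 without pair 3.

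Per kilobase of exon, *Man2a2* made up 76.4%, 65.4% and 36.1% of α-mannosidase II RNA in the wt libraries of pairs 1, 2 and 3, and 61.3%, 57.7% and 45.6% in those labelled flt3L-/-. The isoenzyme with more RNA was therefore *Man2a2* on the first 2 dates and *Man2a1* on the last, in both genotypes, although with the longest transcript as the length the share of the pair 3 library labelled flt3L-/- was 56.1%. Within pairs, the share was lower in the library labelled flt3L-/- on dates 1 and 2 and higher on date 3. The means were 59.3% ± 20.8 in wt and 54.9% ± 8.22 in the others (SD, n = 3), where the SD includes the spread between dates. The summed level, in CPM per kilobase, was 30.3, 21.8 and 14.3 in wt and 22.8, 13.6 and 6.12 in the libraries labelled flt3L-/-, or 0.753, 0.622 and 0.429 of the wt level within pairs.

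**Figure D3:**
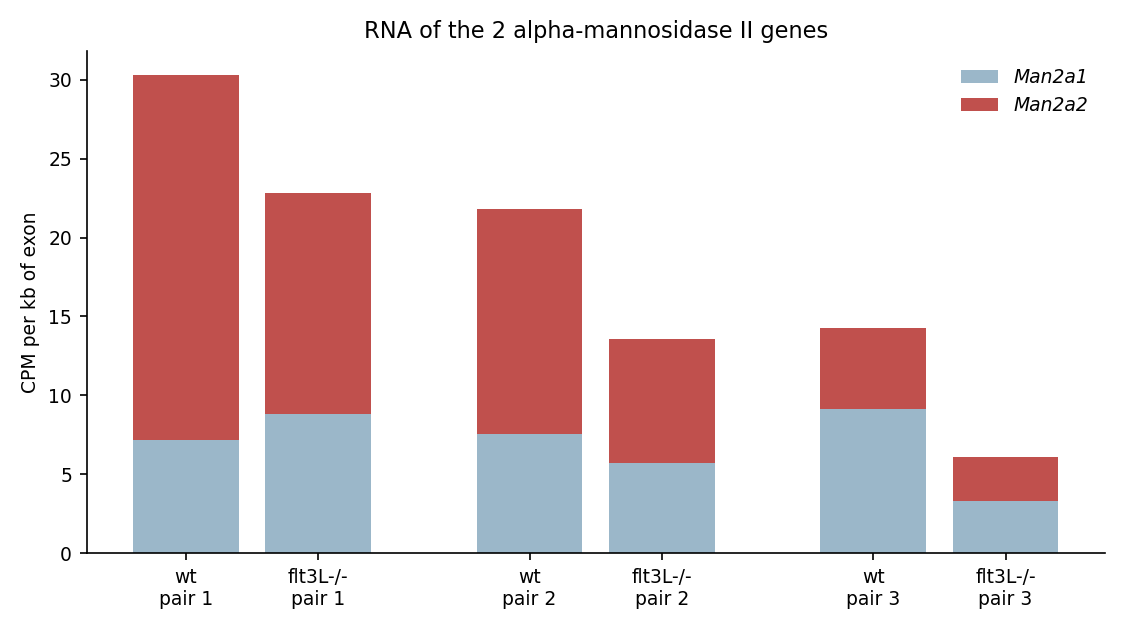
Stacked levels of *Man2a1* and *Man2a2* (CPM per kilobase of exon) in each of the 6 libraries. The *Man2a2* part is smaller in pair 3 than in pair 1 in both genotypes, and the sum is lower in the library labelled flt3L-/- of each pair, from 30.3 against 22.8 in pair 1 to 14.3 against 6.12 in pair 3.

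Markers of stromal cells moved with *Man2a2* in part. The summed CPM of 10 fibroblast markers was 44860, 30010 and 22560 in the wt libraries of pairs 1, 2 and 3, and 22230, 33880 and 10370 in those labelled flt3L-/-. All 10 of 10 had a negative log2 fold change and were lower on date 3 than on date 1. The sum, 58.7% to 64.8% of it *Gsn*, was lower in the library labelled flt3L-/- of pairs 1 and 3. It was higher in that of pair 2, where *Man2a2* was nonetheless lower. Single markers differed in pair 2. *Dcn*, *Lum*, *Tcf21*, *Dpt*, *Gsn* and *Fbln1* were higher there in the library labelled flt3L-/-. *Pdgfra*, *Col1a1*, *Col1a2* and *Col3a1* were lower in every pair, which is 4 of 10 markers, against 11.5% of all genes.

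Per 1000 CPM of fibroblast markers, *Man2a2* was at 5.33, 4.90 and 2.35 CPM in wt and at 6.50, 2.39 and 2.78 CPM in the libraries labelled flt3L-/-. Relative to these markers it was therefore higher in the library labelled flt3L-/- in pairs 1 and 3 and lower in pair 2. The 10 mural markers summed to 905, 448 and 501 CPM in wt and to 564, 503 and 277 CPM in the others, and 9 of 10 had a negative log2 fold change. Relative to them, *Man2a2* was at 264, 329 and 106 CPM per 1000 in wt and at 256, 161 and 104 in the others. It was thus nearly equal within pairs 1 and 3 and clearly lower in the library labelled flt3L-/- of pair 2 only. Of the 10 mural markers, 3 were lower in every pair (*Abcc9*, *Myh11* and *Tagln*) and 0 higher, against 11.5% and 14.2% of all genes. Over 6 libraries, log2 *Man2a2* had a Pearson r of 0.836 with the log2 fibroblast sum and 0.848 with the mural sum. For the other marker lists r was −0.403 to 0.035. The libraries share 3 dates, so these points are not independent. The part of these cells in the level of *Man2a2* was not tested further.

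**Figure D4:**
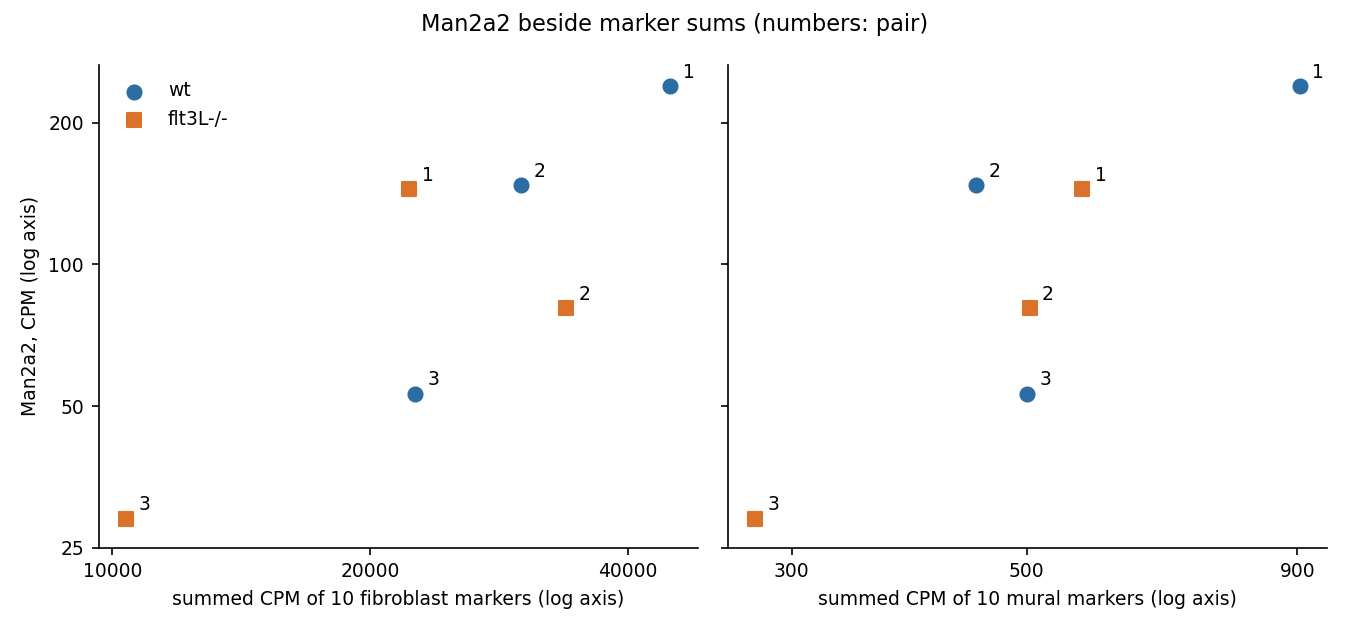
CPM of *Man2a2* against the summed CPM of 10 fibroblast markers (left) and 10 mural markers (right) in each library, on log axes, with the number of the pair beside each point. The wt library of pair 1 is highest and the library labelled flt3L-/- of pair 3 lowest on every axis, while in pair 2 both sums are higher in the library labelled flt3L-/- and *Man2a2* is lower.

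*Man2a2* shares 4.14% of its exon bases with the neighbouring *Hddc3*, and unstranded reads there cannot be told apart. *Hddc3* was at 21.1, 14.6 and 6.52 CPM in wt and at 12.5, 13.6 and 6.13 CPM in the libraries labelled flt3L-/- (log2 fold change −0.32, SE 0.22), so it too was lowest on date 3. The overlap with other genes was 2.22% of the exon bases or less for the other members.

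The 5 genes whose log2 CPM was most like that of *Man2a2* over the 6 libraries were *Nkain3* (Pearson r = 0.996, Spearman rho = 0.943), *Clip4* (0.995 and 1.0), *Dennd2a* (0.994 and 1.0), *Itgav* (0.994 and 0.943) and *Gria1* (0.993 and 1.0). They were picked as the highest of 13474 genes, 170 of which had an r above 0.95. The libraries share 3 dates, so these values describe 6 points that are not independent. *Nkain3* and *Gria1* were near the floor, at 0.158 to 2.02 and 0.0792 to 2.06 CPM. The lowest value of *Gria1*, in the library labelled flt3L-/- of pair 3, lay below the 0.119 CPM that 3 counts make there. *Itgav*, which encodes the integrin αV subunit, a glycoprotein, was at 172, 106 and 44.6 CPM in wt and at 129, 67.0 and 27.9 CPM in the libraries labelled flt3L-/-. *Clip4*, *Dennd2a* and *Itgav* are also genes that the study lists for the genotype contrast. Among the other 9 members the likeness to *Man2a2* ranged from *Mgat4b* (r = 0.707, rho = 0.714) to *Mgat5* (r = −0.497, rho = −0.543).

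Both MGAT4 enzymes add a GlcNAc branch to the arm begun by MGAT1. *Mgat4a* (chr1:37439340-37541016, minus strand) was at 71.4, 91.1 and 97.6 CPM in wt and at 143, 65.9 and 80.4 CPM in the libraries labelled flt3L-/-. The library labelled flt3L-/- of pair 1 was the highest and that of pair 2 the lowest, and the log2 fold change of 0.08 (SE 0.33) turned to −0.37 without pair 1. *Mgat4b* (chr11:50210890-50235103, plus strand) was at 58.2, 72.2 and 24.0 CPM in wt and at 81.5, 42.8 and 39.6 CPM in the others. The library labelled flt3L-/- was the higher of the pair on dates 1 and 3 and the lower on date 2, and the log2 fold change of 0.16 (SE 0.33) moved to 0.58 when pair 2 was left out. Leaving out pair 1 or pair 3 turned it to −0.02 or −0.13.

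After *Man2a2*, *Mgat4b* was the member with the widest range, with 3.39-fold between its highest and lowest library. It was 2.42-fold lower in wt and 2.06-fold lower in the libraries labelled flt3L-/- on date 3 than on date 1. In edgeR's quasi-likelihood test of the dates its adjusted p was 0.617 (unadjusted 0.0843). The unadjusted p was below 0.05 in edgeR with no filter on low counts (0.0462), in edgeR without pair 2 (0.00249) and in DESeq2 (0.0224), with adjusted p of 0.682, 0.0918 and 0.265. *Mgat4a* made up 20.6%, 21.0% and 46.2% of the MGAT4 RNA per kilobase in wt and 27.1%, 24.5% and 29.99% in the others, so *Mgat4b* was the more abundant of both in each library by this length. With the longest transcript as the length, the share of *Mgat4a* in the wt library of pair 3 was 57.6%, and there *Mgat4a* was the more abundant.

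MGAT5 adds the β1,6 branch that is often extended with poly-LacNAc and bound by galectins. *Mgat5* (chr1:127205015-127488336, plus strand) was at 10.4, 9.82 and 11.2 CPM in wt and at 13.8, 12.1 and 13.4 CPM in the libraries labelled flt3L-/-. All 3 wt libraries lay below the other 3 (10.5 ± 0.721 against 13.1 ± 0.873 CPM, SD, n = 3), with differences of 0.41, 0.30 and 0.25 on the log2 scale within pairs and a fitted value of 0.32 (SE 0.18). It was the member with the fewest reads, at 253 to 379 counts per library. *Fut8* (chr12:77238125-77476338, plus strand), whose product is the only core α1,6-fucosyltransferase, was at 84.7, 83.4 and 59.7 CPM in wt and at 74.5, 65.1 and 86.8 CPM in the others. The groups overlapped, and the fitted log2 fold change of −0.00 (SE 0.21) averaged pairs of opposite sign.

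Levels of different genes were compared per kilobase of exon. The mean over 6 libraries was 76.05 ± 7.14 CPM per kilobase for *Mgat2*, 33.1 ± 3.53 for *Mgat1* and 19.5 ± 7.94 for *Mgat4b* (SD, n = 6). A middle group followed with *Fut8* (9.58 ± 1.42), *Man1a* (9.64 ± 1.92), *Man2a2* (11.2 ± 7.47), *Man1a2* (7.69 ± 0.253), *Mgat4a* (7.11 ± 2.17) and *Man2a1* (6.95 ± 2.15), in the order of their mean log2 level. *Mgat5* was lowest at 1.15 ± 0.157.

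Of the 9 neighbouring pairs in this order, 4 had the same order in 6 of 6 libraries. These were *Mgat2* over *Mgat1* (mean log2 difference 1.20), *Mgat1* over *Mgat4b* (0.87), *Mgat4b* over *Fut8* (0.93) and *Man2a1* over *Mgat5* (2.54). Each reached the smallest p that the two-sided exact sign-flip permutation test allows with 6 libraries (p = 0.03125), which was 0.0703 after Benjamini-Hochberg adjustment over the 9 pairs, so none passed 0.05. The 5 steps inside the middle group had adjusted p of 0.675 or more in the same exact test. This test treats the 6 libraries as independent, although they share 3 dates. The order of the neighbours was also taken from the same libraries. With the longest transcript as the length, *Fut8* came before *Mgat4b*.

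**Figure D5:**
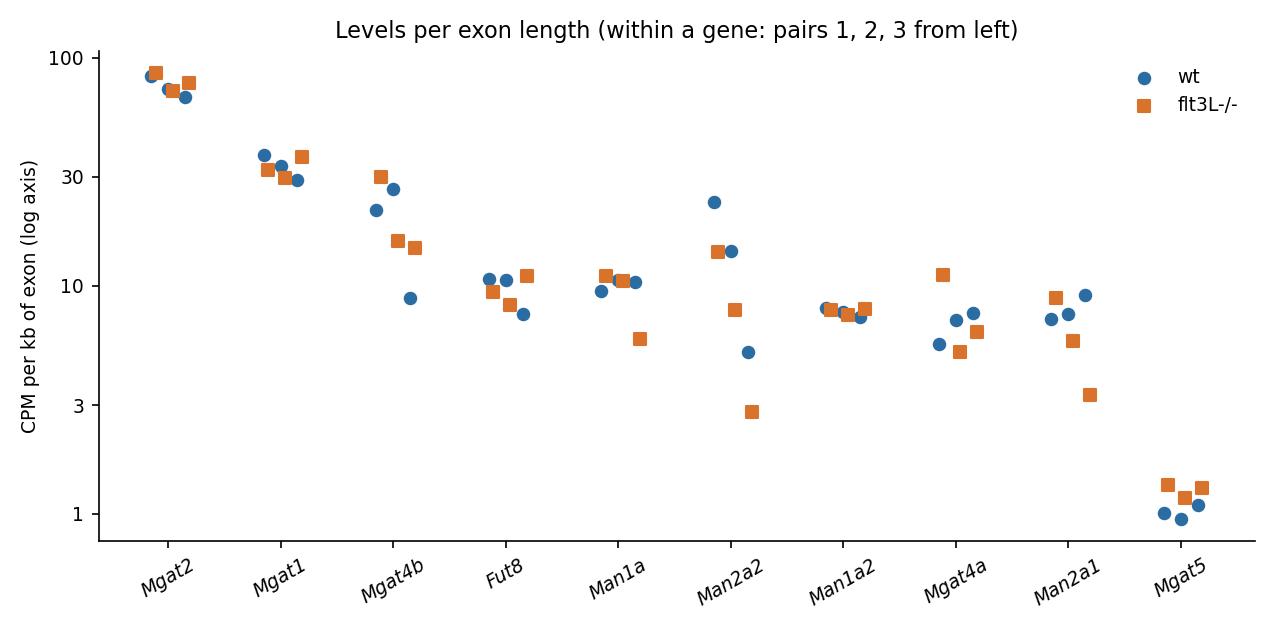
Level of each of the 10 genes in CPM per kilobase of exon (log axis) in the 6 libraries, ordered by mean log2 level, with wt as circles and the libraries labelled flt3L-/- as squares. *Mgat2* lies above and *Mgat5* below all other members in every library, and the points of *Man2a2* spread wider than those of any other member.

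Genes of the N-glycan pathway and its surroundings, such as Golgi traffic and galectins, were read from 9 lists, of which 159 of 173 genes were tested. Not all of the listed enzymes act on N-glycans. By edgeR's quasi-likelihood test 0 of the 159 were called in the genotype contrast, and 0 had an unadjusted p under 0.05, against 3.59% of all genes. In each pair, 11 (6.92%) were lower and 23 (14.5%) higher in the library labelled flt3L-/-, against 11.5% and 14.2% of all genes, and the median log2 fold change was 0.007. In the test of the dates, 7 (4.4%) had an unadjusted p under 0.05, against 8.28% of all genes. DESeq2 called 0 of the 159 for genotype, against 0.156% of all genes. At an unadjusted p under 0.05 in DESeq2 there was 1 (*St3gal1*), against 641 of all 13475 genes. For the dates DESeq2 called 2 of the 159, against 2.89% of all genes. They were the sialyltransferase gene *St3gal2* and *Tmem165*, a Golgi ion transporter gene, both named after their values were seen.

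Before the Golgi, 14 genes were listed for glycoprotein trimming, folding and transport in and out of the ER. In every pair, 3 of them were higher and 1 lower, against 14.2% and 11.5% of all genes. The lower 1 was *Lman1*, and *Lman2* was among the higher, both listed for transport. *Calr*, which encodes the lectin chaperone calreticulin, was at 516 ± 54.1 CPM in wt and 603 ± 9.78 in the libraries labelled flt3L-/- (SD, n = 3), and *Canx*, which encodes calnexin, at 538 ± 55.0 and 538 ± 93.5. Of 31 tested genes that build and transfer the precursor, 7 were higher and 2 lower in every pair, against the same 14.2% and 11.5%. Among them *Alg6*, a glucosyltransferase of the precursor, was at 13.3 ± 3.02 and 8.66 ± 0.471 CPM, with no overlap between groups (log2 fold change −0.59, SE 0.24, edgeR unadjusted p = 0.0569). Of these 31 genes, 1 was lower and 4 were higher without overlap, against 2.92% and 3.53% of all genes. Of the 14 ER genes, 0 were lower and 3 higher without overlap, *Calr* among them.

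Of 6 genes listed beside the members for trimming and branching, only 2 were tested, *Man1c1* and *Fuca2*, and *Fuca2* does not encode a Golgi branching enzyme. *Man1c1*, a further class I mannosidase, was at 37.6 ± 27.2 and 29.9 ± 25.02 CPM, so that its spread between libraries was close to its level. Of genes that extend or cap glycans, not of N-linked glycans only, 14 galactose and poly-LacNAc genes and 13 sialylation and fucosylation genes were tested. *St3gal1*, a sialyltransferase, had 29.3 ± 9.82 CPM in wt and 41.5 ± 13.6 in the libraries labelled flt3L-/-, was higher in every pair (log2 fold change 0.51, SE 0.19) and had the smallest unadjusted p of its list (edgeR, 0.05001). *B3gnt7* had a log2 fold change of −1.38 (SE 0.54) but lay near the filter, at 1.28 ± 0.71 and 0.455 ± 0.201 CPM.

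Sugar nucleotide supply (25 tested), glycan breakdown (14), Golgi structure and traffic (40) and galectins (6) had median log2 fold changes of 0.075, −0.061, −0.001 and 0.128. *Gfpt2*, an enzyme of the pathway to UDP-GlcNAc, was at 479 ± 103 and 455 ± 280 CPM. *Cog1*, a subunit of the Golgi tethering complex, was at 60.6 ± 3.04 and 71.9 ± 5.76 CPM with no overlap between groups (log2 fold change 0.24, SE 0.12). Of the 40 genes of its list, 2 were higher and 0 lower without overlap, against 3.53% and 2.92% of all genes. *Lgals9*, the most abundant galectin tested, was at 331 ± 57.9 and 433 ± 152 CPM.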

How the data were processed

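RNA from sorted cardiac SP cells was sequenced in 6 unstranded libraries made with the low-input SMART-Seq v4 kit. The authors mapped single reads to mm10 with STAR 2.5.2a, distributed reads with equally good hits at random, and deposited counts of reads starting in an Ensembl exon, not normalized. Annotation was GENCODE for GRCm38.

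Counts were tested in edgeR 4.0.16 (R 4.3.3) with glmQLFit and glmQLFTest (legacy = TRUE), TMM factors and sorting date as covariate, for protein-coding genes above 1 CPM in at least 2 libraries, with Benjamini-Hochberg adjustment. Scripts were tested on simulated data. Log2 CPM used a prior count of 2. Depth sets a floor of 3 counts, or 0.109 to 0.127 CPM, which covers counting error only, and p-values measure the spread between pools of mice.

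Pairs come from the sorting dates. After removal of group means, libraries of the same date correlated at 0.18, 0.104 and 0.116, and those of different dates at −0.354 to 0.247, of which 0.247 and 0.191 exceeded all same-date values.

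The members and lists were chosen with earlier results of these data known. Named are the members, *Flt3l*, the 5 genes most like *Man2a2*, and from each pathway list the 3 most abundant genes and that with the smallest p, and from each marker list the most abundant gene, of which the text gives those that bear on a sentence. *Hddc3* was named for its overlap, after its values were seen. Alternatives were 2 normalizations, DESeq2 1.42.0, legacy = FALSE, 2 filters, all biotypes, no replicate block, other gene lengths and each pair left out.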

Additional observations from a re-analysis of the deposited data

How the results depend on the processing

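The count of genes called for genotype was 0 in every edgeR fit, including the fit with no replicate block, and 21 with DESeq2 (6 higher, 15 lower). For the sorting date it was 0 with edgeR and 389 with DESeq2, and 0 to 112 with 1 pair left out, where 112 (0.854% of genes, with 1 of 10 members, *Man2a2*) came without pair 2. The causes were not tested. With no replicate block, genes at an unadjusted p under 0.05 numbered 262 in place of 484. Without pair 2 they numbered 980 and without pair 3 249. The log2 fold change of *Man2a2* was −0.86 to −0.79 over the settings with all libraries and −0.87 to −0.80 with 1 pair left out. Leaving out 1 pair changed the sign for *Man1a*, *Man1a2*, *Mgat1*, *Mgat4a*, *Mgat4b* and *Fut8*, and other settings did so for *Man1a2* and *Fut8*, by less than the SD over pairs in each case. No neighbouring pair in the order of levels passed with other gene lengths, and with 4 libraries the exact test cannot go below 0.125.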
